A study of Mus musculus with 12 samples.

Results

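The 10 transcripts described here encode proteins of the BCL2 family, which sets whether a leukemic blast survives or dies through the mitochondrial pathway of apoptosis. They were chosen by gene symbol from the 24454 genes of the deposited table. Bcl2, Bcl2l1, Mcl1 and Bcl2a1b encode survival proteins, Bax and Bak1 the pore-forming effectors, and Bid, Bcl2l11, Bbc3 and Pmaip1 BH3-only proteins. The blasts descend from fetal liver cells, either wildtype (WT) or STAT3β-deficient (Δβ), in which a retrovirus expressed the leukemia fusion oncogene MLL-AF9 together with the fluorescent protein Venus. The cells were grown in young male NSG mice, which lack mature lymphocytes, NK cells and a functional common gamma chain but keep host myeloid cells. Venus+ cells were then sorted from the spleen (SP) or bone marrow (BM) of diseased animals. Every group thus carried MLL-AF9 and the NSG host. WT and Δβ blasts from SP and from BM gave 3 poly-A enriched libraries each, 12 in all. The labels do not say whether the libraries of a group go back to separate transformed cultures, so the p-values measure the spread between these libraries.

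In mitochondrial apoptosis, the effectors BAX and BAK open pores in the outer mitochondrial membrane, cytochrome c is released and caspases are activated. Survival proteins hold the effectors and the BH3-only proteins in check, and BH3-only proteins neutralize the survival proteins or activate the effectors. MCL1 is a short-lived survival protein on which many myeloid leukemias depend, and NOXA, the product of Pmaip1, binds it with preference. Much of this control acts on protein turnover and binding, which transcript levels do not measure.

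The libraries held 9001051 to 13859727 reads on genes. Stat3, whose β isoform is missing in Δβ blasts, spanned 2977 to 4429.8 normalized counts (WT SP), 2674 to 3236 (Δβ SP), 2714 to 3201 (WT BM) and 2349 to 3228 (Δβ BM). These gene-level values overlapped in both organs and do not separate the isoforms, so they do not check the genotype labels. Each of 12 markers of AML blasts and myeloid progenitors had reads in every group. The sum of 10 erythroid markers was 6.98 to 20.7 normalized counts in the 12 libraries, with 0 reads of the globin genes Hba-a1, Hbb-bs and Hbb-bt in each. The summed level of 8 T and NK cell markers was 436 normalized counts in Δβ BM replicate 1 and 161 in Δβ SP replicate 1, against 9.01 to 59.8 in the other libraries. The WT SP libraries stood apart. Pearson's r across genes was 0.897 to 0.964 among them and 0.929 to 0.968 within the other groups. The sum of 12 immediate early genes, which respond within minutes to stimulation or cell handling, lay between 75988 and 86282 normalized counts in WT SP and between 11891 and 62334 in the other groups. The ribosomal RNA precursor Rn45s was at 91112, 305936 and 263276 normalized counts in WT SP and at 18712 to 68516 elsewhere. Summed levels of 10 mature neutrophil markers were 111907, 163695 and 62455 in WT SP replicates 1, 2 and 3 and 46475 to 63928 in Δβ SP, and they reached 207996 in WT BM replicate 3. The sum of 8 megakaryocyte and platelet markers was 1539, 303 and 125 in WT SP and 68.9 to 139 elsewhere. Markers of stroma and endothelium (9 genes) summed to 1162 to 1226 in WT SP and 1583 to 2550 in Δβ SP, without overlap. In BM they summed to 831 to 2104. Only 2 of the 9 were high enough to be tested, and in SP 1 was higher and 1 lower in Δβ.

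Levels of different genes were set side by side as normalized counts per kilobase of exon. Mcl1 was the most abundant member in each library, with 1279 to 4169 per kilobase. Bak1 followed with 653 to 1050.2, then Bax with 309 to 801, Bid with 316 to 433 and Pmaip1 with 176 to 781. Bak1 lay above Bax, Bid and Pmaip1 in each library. The ranges of Bax, Bid and Pmaip1 overlapped, so their order is not fixed beyond the spread between libraries. Bcl2l1 lay at 85.2 to 105, and Bbc3, Bcl2l11, Bcl2a1b and Bcl2 had medians of 57.9, 46.9, 34.2 and 31.2 per kilobase with overlapping ranges. Among the 4 survival genes, Mcl1 took 86.3% to 92.9% of the summed length-scaled level. Its share was 88.4% to 92.9% in WT SP and 89.5% to 91.2% in Δβ SP, so the genotypes overlapped in this share. Bcl2, the target of the inhibitor venetoclax, had the lowest median per kilobase of the 10 and also the longest exon length, 9157 bases. Before length scaling its median, 285 normalized counts, was above those of Bbc3 (123) and Bcl2a1b (27.9).

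**Figure D1:**
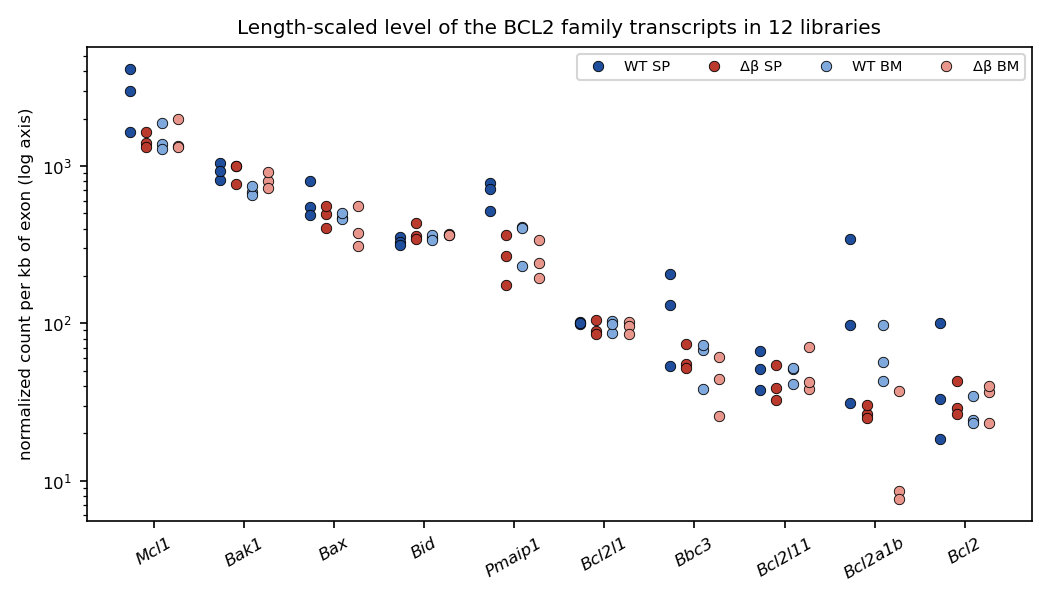
Normalized count per kilobase of exon (log axis) of the 10 BCL2 family transcripts, ordered by their median, with 1 point per library coloured by genotype and organ. Mcl1 lies above the other members, at 1279 to 4169 per kilobase, and Bcl2a1b spreads furthest, from 7.61 to 346.

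The first comparison asked which members differ between Δβ and WT blasts in SP. The lowest estimates for Δβ against WT were those of Bcl2a1b, Pmaip1, Bbc3 and Mcl1, which include survival as well as death genes. By limma, 0 of 10 members passed an adjusted p of 0.05, where 0.105% of all 11476 tested genes did. At an unadjusted p under 0.05, 3 of 10 members were lower and 0 higher, against 8.96% and 5.93% of all tested genes. DESeq2 on the recovered reads called 3 of the 10, Pmaip1, Mcl1 and Bcl2a1b, against 3.98% of all genes. The groups did not overlap for Pmaip1 and Bcl2a1b, 2 of 10 members, whereas 9.37% of all tested genes were lower in Δβ without overlap. All 10 members had a mean of at least 10 normalized counts and were tested, and each would have passed on any single group's mean.

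Pmaip1 (NOXA; RefSeq NM_021451, Entrez gene 58801, chromosome 18) was measured in WT SP at 2135, 1963 and 1416 normalized counts (replicates 1, 2 and 3 here and in every list below) and in Δβ SP at 481, 1000.3 and 737. The BM values were 635, 1118 and 1101 in WT and 658, 530.3 and 921 in Δβ. The 3 WT SP libraries were thus the highest of the 12, and the other 9 lay between 481 and 1118. In SP, Δβ minus WT was -1.35 on the log2 scale (SE 0.31, 2.55-fold lower, Benjamini-Hochberg adjusted p = 0.168 by limma). The adjusted p was 0.00678 with DESeq2 and 0.167 with edgeR's quasi-likelihood test. In BM the log2 difference was -0.43 (95% interval -1.12 to 0.26, limma adjusted p = 1.0). The difference between the SP and BM effects, -0.93 on the log2 scale, had an adjusted p of 0.926 by limma and an unadjusted p of 0.0607. With SP and BM averaged, the log2 difference was -0.89 (SE 0.16), the smallest p among the members, with an adjusted p of 0.174 by limma. That fit takes the averages of same-numbered libraries as independent, which the labels do not settle. Immediate early genes and Rn45s were also highest in the WT SP libraries, and their part in the Pmaip1 difference was not tested.

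Mcl1 (RefSeq NM_008562, Entrez gene 17210; chromosome 3, 95658788 to 95663176, plus strand) had 14250.0, 10311 and 5636 normalized counts in WT SP and 5655, 4789 and 4543 in Δβ SP. It had 4693, 4371 and 6401 in WT BM and 6839.7, 4602 and 4499 in Δβ BM. WT SP replicates 1 and 2 stood above the 10 other libraries, and WT SP replicate 3 lay just under the highest Δβ SP library. The SP log2 fold change was -0.92 (SE 0.30, 1.89-fold lower, limma adjusted p = 0.245), with an adjusted p of 0.0383 by DESeq2. In BM it was 0.04 (95% interval -0.63 to 0.70, limma adjusted p = 1.0). For the SP effect minus the BM effect the estimate was -0.95 (SE 0.43), with a limma adjusted p of 0.926 and an unadjusted p of 0.0482. The sums of mature neutrophil markers and of megakaryocyte and platelet markers were higher in WT SP replicates 1 and 2 than in replicate 3. The latter sum fell from replicate 1 to replicate 3 in WT SP, as did every member except Bak1 and Bcl2l1. The part of these cells in the members' values was not tested. In bulk libraries, fewer cells of a type and less RNA per cell cannot be told apart.

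The 300 bases around the start of Mcl1, the survival gene with most transcripts, are shown for reference, from 250 bases before to 50 after the RefSeq start site (GRCm38.p6, plus strand, chr3:95658471-95658770). They are in lower case throughout, because none of the 4 motifs searched occurs in them.
Mcl1: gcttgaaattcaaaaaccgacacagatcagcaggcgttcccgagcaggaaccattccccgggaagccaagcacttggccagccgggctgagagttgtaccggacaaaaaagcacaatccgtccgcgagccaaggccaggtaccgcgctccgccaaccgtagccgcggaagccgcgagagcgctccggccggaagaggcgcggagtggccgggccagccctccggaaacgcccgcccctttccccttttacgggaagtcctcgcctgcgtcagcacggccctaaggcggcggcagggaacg

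Bcl2a1b (A1-b; RefSeq NM_007534, Entrez gene 12045; chromosome 9, 89199209 to 89207827, plus strand), a survival gene induced by NF-κB, was the most variable member. In WT SP it was at 283, 79.5 and 25.4 normalized counts and in Δβ SP at 21.7, 24.6 and 20.3. In BM it had 79.4, 46.2 and 35.2 in WT and 30.4, 7.01 and 6.21 in Δβ. In each organ every WT value lay above every Δβ value, but by a narrow margin, 25.4 against 24.6 in SP and 35.2 against 30.4 in BM. The log2 fold change was -1.87 in SP (SE 0.79, limma adjusted p = 0.312, DESeq2 adjusted p = 0.0419) and -2.08 in BM (SE 0.79, limma adjusted p = 1.0). It was the single member without overlap in BM, where 4.13% of all tested genes were lower in Δβ without overlap, and the single member with an unadjusted p under 0.05 there (0.0230, against 2.59% of all genes). Its SP and BM effects differed by 0.21 (95% interval -2.24 to 2.67). These values rest on few reads, from 6 in Δβ BM replicates 2 and 3 to 248 in WT SP replicate 1. Without WT SP replicate 1 the SP log2 fold change was -0.99. The sum of 10 tissue macrophage markers was also lower in Δβ BM without overlap. However, 7 of the 10 had under 3 reads in every WT BM library, and 7 in every Δβ BM library. Only 2 were high enough to be tested, and in BM 1 was higher and 1 lower in Δβ. The part of such cells in the Bcl2a1b difference was not tested.

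Bcl2a1b has near-identical copies on chromosome 9, and reads from them may have been shared out or dropped in counting. Its longest open reading frame, 519 bases, was 97.9% identical to that of Bcl2a1a and 98.8% identical to that of Bcl2a1d in GENCODE release M21. Bcl2a1a had 63.8, 28.6 and 12.2 normalized counts in WT SP, 17.1, 28.0 and 12.8 in Δβ SP, 32.7, 38.3 and 15.1 in WT BM and 17.4, 17.5 and 5.18 in Δβ BM. Its genotype groups overlapped in both organs (limma adjusted p = 0.647 in SP and 1.0 in BM). Bcl2a1d, at 1.07 to 34.2, was too low to be tested. WT SP replicate 1 had the highest value of all 3 copies. The windows below show how alike the copies are upstream of their start sites. They were taken from the RefSeq promoters (GRCm38.p6) at chr9:89199049-89199175 on the plus strand for Bcl2a1b, chr9:88956740-88956866 on the plus strand for Bcl2a1a and chr9:88731898-88732024 on the minus strand for Bcl2a1d, and capitals mark a match to TGANTCA, a looser form of the AP-1 site TGACTCA.
Bcl2a1b: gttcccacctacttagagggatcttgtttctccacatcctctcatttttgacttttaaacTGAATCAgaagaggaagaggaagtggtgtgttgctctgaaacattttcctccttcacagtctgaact
Bcl2a1a: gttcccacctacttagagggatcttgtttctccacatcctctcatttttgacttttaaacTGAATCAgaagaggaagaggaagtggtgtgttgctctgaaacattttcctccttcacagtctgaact
Bcl2a1d: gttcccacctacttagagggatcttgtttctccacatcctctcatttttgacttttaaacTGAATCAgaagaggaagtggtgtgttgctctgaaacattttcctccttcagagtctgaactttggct
The first pair was 100% identical over 127 bases, and Bcl2a1b and Bcl2a1d were 90.2% identical when aligned end to end. Bcl2a1d lacks a short run of bases after the match, so its window of equal length reaches further downstream, which lowers this value. The TGANTCA match begins at position -164 from the RefSeq start site of Bcl2a1b. RefSeq promoters were found for 9 of the 10 members (14 promoters in all) but not for Pmaip1. On both strands, TGANTCA occurred in the promoter of 1 member, Bcl2a1b, and in 7.81% of all 32851 promoters. The AP-1 site TGACTCA itself, whose matches are a subset of these, occurred in 0 of the 14 and in 5.2% of all promoters. TTCNNNGAA, the letters of the STAT site, occurred in 0 of the 14 and in 8.3% of all promoters. CACGTG, the E-box of MYC, occurred in those of Bax and Bbc3 and in 7.15% of all. These matches are letters in a window and not measured binding.

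Bbc3 (PUMA; RefSeq NM_133234, Entrez gene 170770; chromosome 7, 16308393 to 16318205, plus strand), a BH3-only gene induced by p53, had 436, 279 and 114 normalized counts in WT SP and 156, 116 and 110.0 in Δβ SP. It had 143, 81.1 and 154 in WT BM and 54.4, 94.6 and 129 in Δβ BM. As for Mcl1, WT SP replicates 1 and 2 were the highest of the 12 and replicate 3 fell within the range of Δβ SP. The log2 fold change was -0.93 in SP (SE 0.47, limma adjusted p = 0.369) and -0.47 in BM (SE 0.47, limma adjusted p = 1.0). Over both organs it was -0.70 (SE 0.26), with a limma adjusted p of 0.456. Without WT SP replicate 1 the SP value was -0.50, and without WT SP replicate 3 it was -1.46. The BM value ran from -0.76 to -0.13 when 1 library was left out.

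WT SP replicate 3 decided whether these SP differences passed the limma test. With it left out, Mcl1 (adjusted p = 0.0123), Pmaip1 (0.0188), Bcl2a1b (0.0290) and Bbc3 (0.0332) passed by limma, 4 of 10 members, but so did 16.4% of all tested genes, and 11.7% were called lower. With WT SP replicate 1 or 2 left out instead, 0 of 10 members passed, against 0.0784% and 0.0349% of all genes. The 2 remaining WT libraries in each of these fits were assumed to vary like the other groups.

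**Figure D2:**
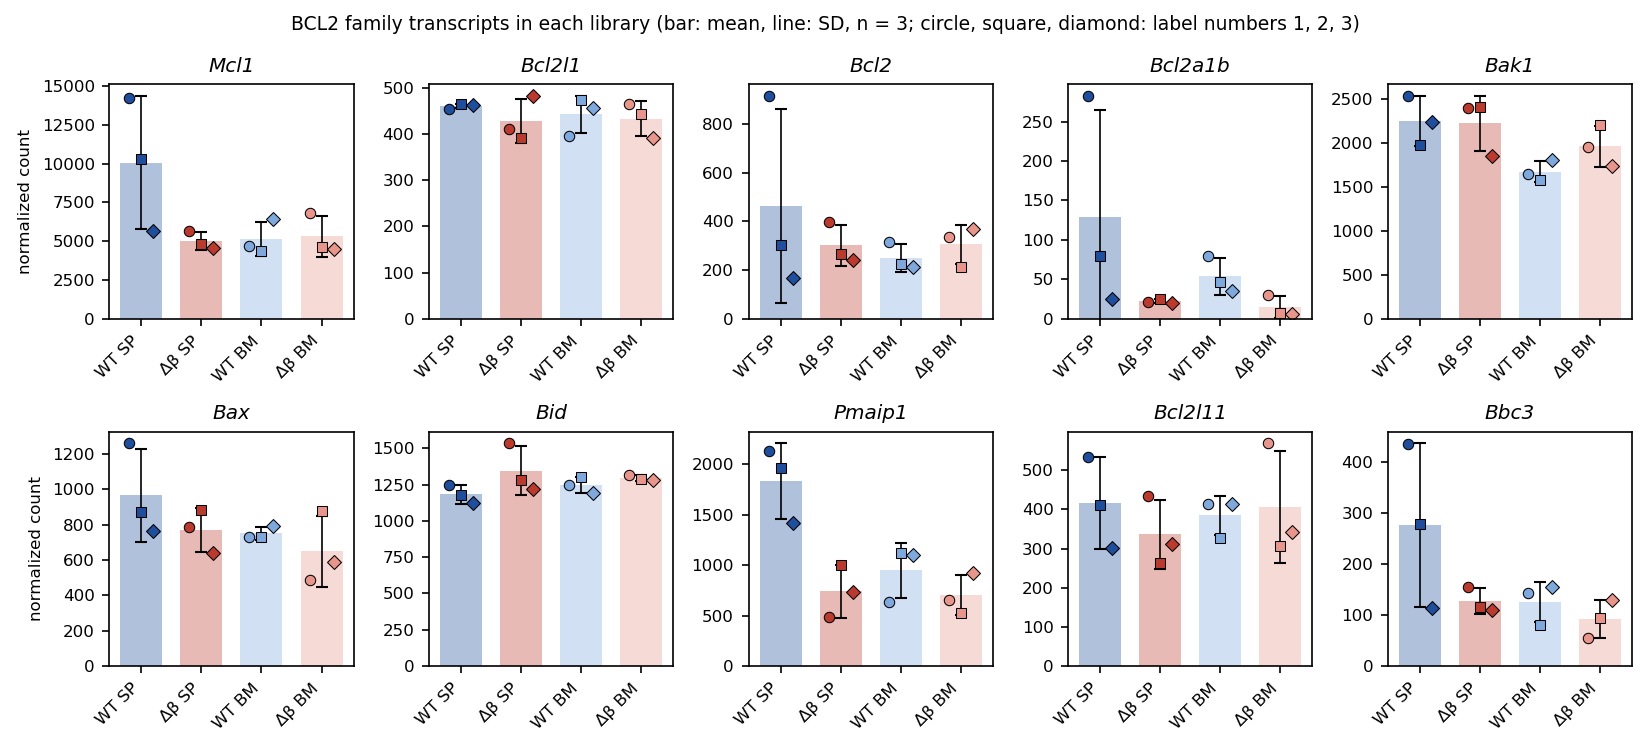
Normalized counts of the 10 members in each library (y axes start at 0 and differ between genes); bars are group means, lines are SD (n = 3), and circles, squares and diamonds are label numbers 1, 2 and 3. WT SP has the highest group mean for every member except Bid. WT SP replicate 3 (dark blue diamond) lies near the Δβ SP values for Mcl1 (5636), Bcl2a1b (25.4) and Bbc3 (114).

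**Figure D3:**
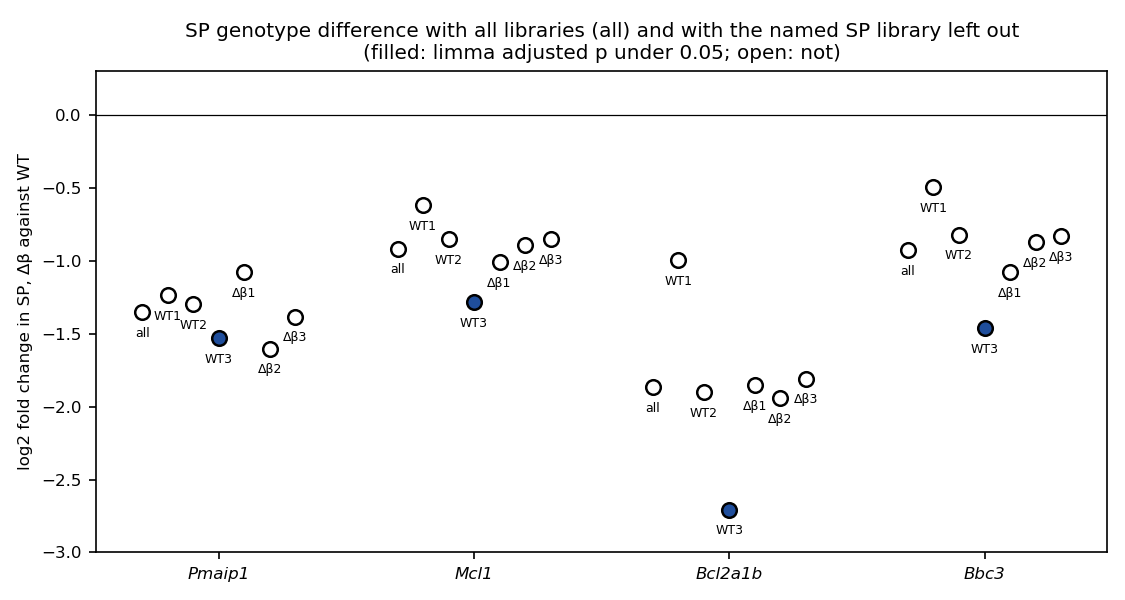
Log2 fold change of Δβ against WT in SP for Pmaip1, Mcl1, Bcl2a1b and Bbc3 with all libraries and with the named SP library left out; filled points have a limma adjusted p under 0.05. The filled points are those without WT SP replicate 3, at -1.53, -1.29, -2.71 and -1.46.

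Among the survival genes, Bcl2l1 (BCL-XL; RefSeq NM_009743, Entrez gene 12048; chromosome 2, 152780668 to 152831728, minus strand) was the steadiest of the 10. Its WT SP values were 455, 464 and 462 normalized counts, with 411, 391 and 481 in Δβ SP, 396, 473 and 457 in WT BM and 465, 443 and 392 in Δβ BM. Its highest value was 1.23 times its lowest. The 95% interval of the genotype log2 difference was -0.38 to 0.16 in SP and -0.30 to 0.24 in BM. Bcl2 (RefSeq NM_177410, Entrez gene 12043; chromosome 1, 106538178 to 106714274, minus strand) had 916, 304 and 167 in WT SP, 396, 267 and 241 in Δβ SP, 316, 223 and 211 in WT BM and 334, 214 and 368 in Δβ BM. WT SP held both its highest and its lowest value, and the genotypes overlapped in both organs. The log2 difference was -0.29 in SP (95% interval -1.39 to 0.81) and 0.27 in BM (95% interval -0.83 to 1.37). Both intervals include 0, so its direction was not settled in either organ. Without WT SP replicate 1, the Bcl2 difference in SP turned to 0.38.

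Both effectors overlapped between genotypes in SP and in BM. Bak1 (RefSeq NM_007523, Entrez gene 12018; chromosome 17, 27019810 to 27029009, minus strand) had 2528, 1968 and 2236 normalized counts in WT SP, 2396, 2402 and 1852 in Δβ SP, 1640.2, 1573 and 1799 in WT BM and 1944, 2199.6 and 1735 in Δβ BM. Its log2 difference between genotypes was -0.02 in SP (95% interval -0.33 to 0.29), a direction that turned positive when the libraries were rescaled by TMM, and 0.23 in BM (95% interval -0.09 to 0.54). Bax (RefSeq NM_007527, Entrez gene 12028; chromosome 7, 45461697 to 45466898, minus strand) had 1263, 869 and 766 in WT SP, 786, 883 and 641 in Δβ SP, 732, 728 and 794 in WT BM and 487, 875 and 589 in Δβ BM. Its Δβ minus WT difference was -0.31 in SP and -0.25 in BM (SE 0.23 for both; limma adjusted p = 0.513 and 1.0), and leaving out 1 library moved it between -0.46 and -0.10 in SP and between -0.49 and -0.064 in BM. Exons of Bak1 overlap those of Ggnbp1 on the other strand, and whether strand was used in counting is not given in the sources used here. Ggnbp1 had 80.9 to 245 normalized counts in the 12 libraries.

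Of the other BH3-only genes, Bid (RefSeq NM_007544, Entrez gene 12122; chromosome 6, 120891930 to 120916853, minus strand), whose product links death receptors to the mitochondrion, had 1249, 1175 and 1122 normalized counts in WT SP, 1537, 1283 and 1218 in Δβ SP, 1244, 1301 and 1193 in WT BM and 1319, 1286 and 1284 in Δβ BM. It was the single member with a higher estimate in Δβ SP, 0.18 on the log2 scale (95% interval -0.05 to 0.41). Its exons overlap those of Bcl2l13 on the other strand, a gene at 815 to 1045 normalized counts, so some reads may belong to either. Bcl2l11 (BIM; RefSeq NM_207681, Entrez gene 12125; chromosome 2, 128126038 to 128162547, plus strand), a BH3-only gene induced by FOXO factors, had 534, 411 and 300.4 in WT SP, 435, 262 and 312 in Δβ SP, 413, 328 and 415 in WT BM and 569.7, 307 and 342 in Δβ BM. The ranges of the genotypes overlapped in both organs, with log2 differences of -0.30 in SP and 0.03 in BM (SE 0.28 for both). With 1 library left out, the Bcl2l11 difference ran from -0.51 to -0.096 in SP and from -0.24 to 0.20 in BM.

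**Figure D4:**
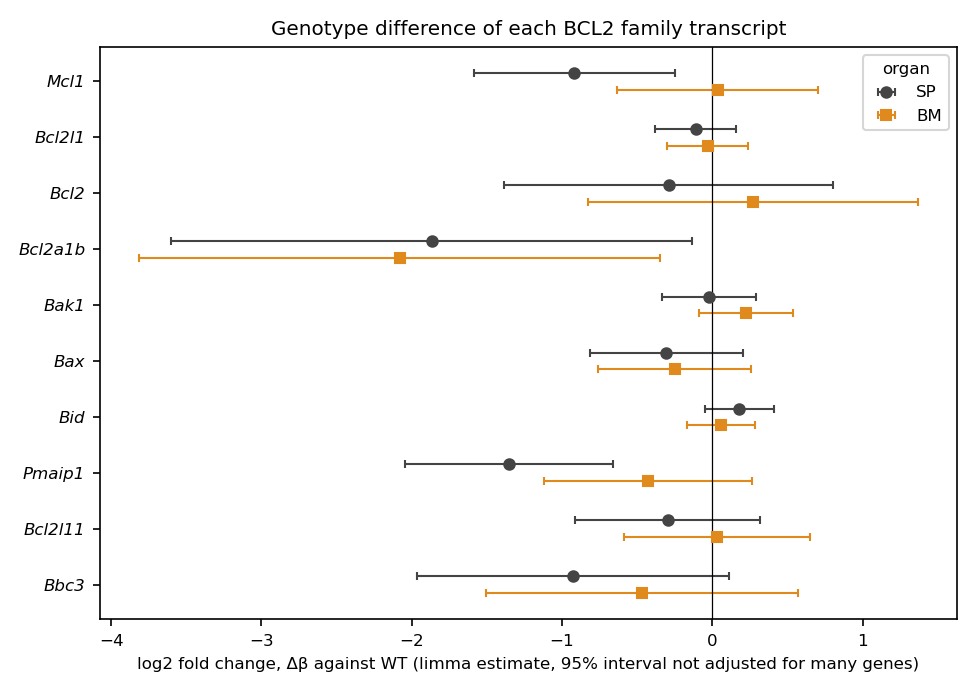
Log2 fold change of Δβ against WT for the 10 members in SP (circles) and BM (squares), limma estimates with 95% intervals that are not adjusted for testing many genes. The SP intervals of Pmaip1, Mcl1 and Bcl2a1b and the BM interval of Bcl2a1b lie below 0, and no member passed an adjusted p of 0.05 in either organ.

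In BM, 0 of 10 members passed the adjusted threshold by limma, where 0.0697% of all tested genes did, nor did any by DESeq2, which called 0.322% of all genes. No member passed for the SP effect minus the BM effect either (0.0% of all genes). There, 1 of 10 members, Mcl1, had an unadjusted p under 0.05, against 3.2% of all genes. Over both organs together, 0 of 10 members passed, against 0.148% of all genes, and 4 of 10 (Pmaip1, Bcl2a1b, Bbc3 and Mcl1) were lower in Δβ at an unadjusted p under 0.05, against 6.5% of all genes. The Bcl2a1b difference there was -1.97 (SE 0.60) and that of Mcl1 -0.44 (SE 0.17), both on the log2 scale.

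By role, the median log2 fold change in SP was -0.60 for the 4 survival genes, -0.16 for the 2 effectors and -0.61 for the 4 BH3-only genes, beside -0.01 for all tested genes. In BM the medians were 0.00, -0.01 and -0.20, beside -0.02 for all tested genes. The survival and BH3-only medians lay close together in SP, and no difference between the roles was tested. Other lists also had SP medians below 0: -0.67 for 12 AML blast and progenitor markers, -1.14 for 10 mature neutrophil markers and -2.06 for 12 immediate early genes. Megakaryocyte and platelet markers (4 tested) had -0.63 and tissue macrophage markers (2 tested) -1.37. Above 0 were B cell (0.42, 3 tested), T and NK cell (1.60, 2 tested) and stroma markers (0.18, 2 tested).

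The second comparison set SP against BM within a genotype. In WT, the smallest p-values among the members went with estimates above 0 for SP minus BM: 0.97 (SE 0.31) for Pmaip1, 0.89 (SE 0.30) for Mcl1 and 0.42 (SE 0.14) for Bak1 on the log2 scale. The adjusted p was 0.580 for each by limma. These 3 of 10 members had an unadjusted p under 0.05 in the direction of SP, against 4.36% of all tested genes, and 0 of 10 passed the adjusted threshold, as did 0.0% of all genes (at an unadjusted p under 0.05, 500 genes were higher and 449 lower, and DESeq2 called 0.967% of all genes and no member). The organs did not overlap for Pmaip1 and Bak1, while 5.66% of all tested genes were higher in SP without overlap. Bak1 had at least 1968 normalized counts in the WT SP libraries and at most 1799 in WT BM. For Bbc3 the estimate was 0.98 (SE 0.47, limma adjusted p = 0.604), with overlap. Without WT SP replicate 3, Mcl1 passed by limma (adjusted p = 0.0260), along with 5.21% of all genes.

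In Δβ, 0 of 10 members reached an unadjusted p under 0.05 between SP and BM by limma, where 1.77% of all tested genes did. At the adjusted threshold limma called 0.0% of all genes and DESeq2 0.0174%, with no member among them. The estimates ran from -0.25 for Bcl2l11 to 0.92 for Bcl2a1b, the latter with a 95% interval of -0.81 to 2.66. For Mcl1 the interval was -0.74 to 0.60, and for Pmaip1 it was -0.64 to 0.74. Group means in WT SP were 1838 ± 375 normalized counts for Pmaip1, 10066 ± 4312 for Mcl1 and 276 ± 161 for Bbc3 (SD, n = 3), against 703 to 951, 4996 to 5314 and 92.8 to 127 in the other 3 groups. WT SP also had the highest group mean of every other member except Bid. For Mcl1 and Bbc3, WT SP replicates 1 and 2 carried the mean, and replicate 3 (5636 and 114) lay within the range of Δβ SP. The same 3 WT SP libraries entered the genotype and the organ comparison, so these are not independent results.

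Across the 12 libraries, Pearson's r of log2 levels was 0.74 between Mcl1 and Bbc3, 0.74 between Mcl1 and Bcl2a1b, 0.68 between Mcl1 and Pmaip1 and 0.78 between Bax and Bbc3. Bid and Pmaip1 gave the lowest value, -0.62. These describe 12 libraries that share genotype, organ and possibly mice. Tested genes with patterns most like Mcl1 were Rhoa (r = 0.988) and Nadk (0.979). Those most like Pmaip1 were Srxn1 (0.911) and the immediate early genes Ier2 (0.896) and Junb (0.889). Bbc3 was most like Map7d1 (0.959), Hcls1 and Ehbp1l1, and Bcl2a1b most like Rnf169 (0.953), Abcc5 and Itpkb. Bcl2 was most like Ppm1h (0.953) and Usp8, and Bcl2l11 most like Psme4 (0.937), Gna13 and Bmp2k. The closest genes to Bax were Adap1 (0.920), Ctsz and Hmg20b, those to Bak1 were Plekhg4 (0.915), Nagpa and Upp1, and those to Bid were Adss (0.908), Gnptab and Muc13. Bcl2l1, which varied least, had the weakest match, Tmem63a (0.861), followed by 2610001J05Rik.

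**Figure D5:**
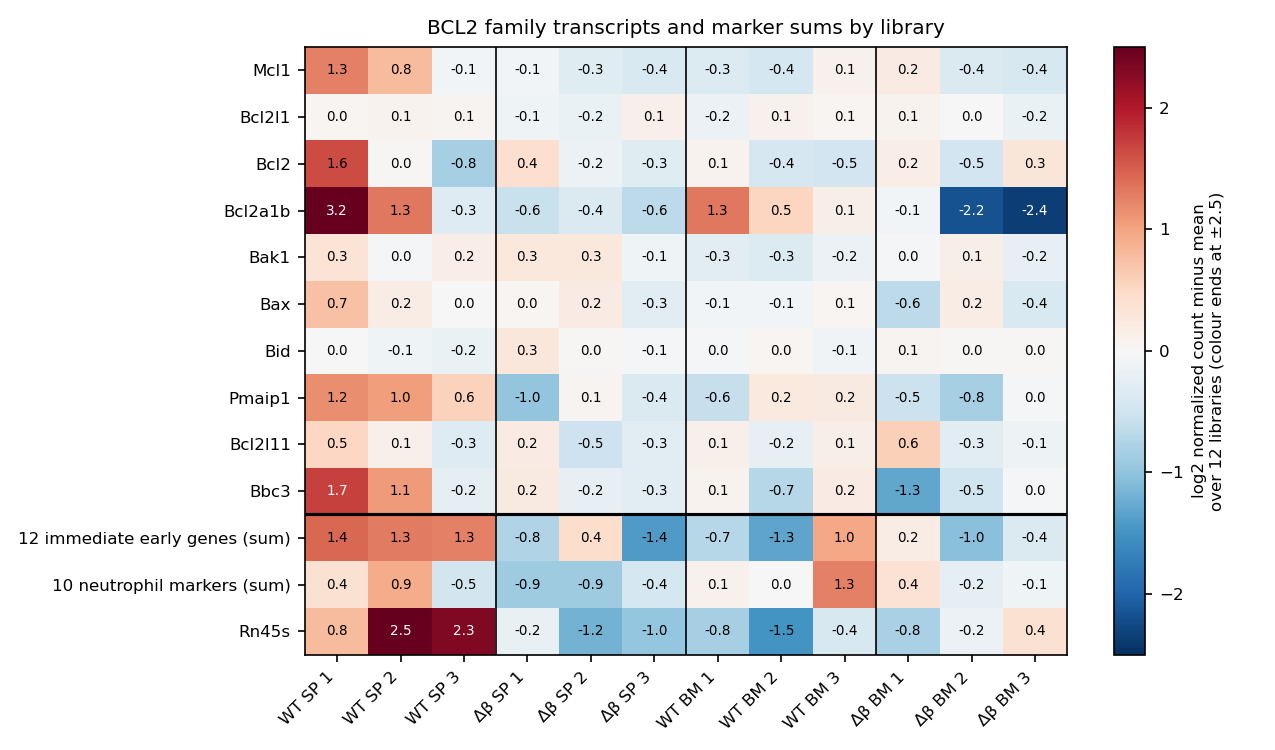
Heat map of log2 normalized counts minus the mean over the 12 libraries (columns) for the 10 members, the summed immediate early genes, the summed neutrophil markers and Rn45s. Mcl1, Bcl2a1b, Pmaip1 and Bbc3 are high in WT SP replicates 1 and 2, and the immediate early genes and Rn45s are high in all 3 WT SP libraries.

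Genes of the wider pathway were counted in the same fit. In SP, BM, both organs together and between organs, 0 genes passed the adjusted threshold by limma in any of 8 lists: 2 tested genes of other survival proteins, 2 of other effector and BH3-only proteins, 6 of other BCL2-related proteins, 20 of mitochondrial release, apoptosome and caspases, 14 of death receptor signalling, 12 of p53 and its targets, 7 of MCL1 turnover and 13 of transcription factors that act on members. The median log2 difference in SP ran from -0.24 for the other survival genes to -0.03 for the apoptosome and caspase genes, beside -0.01 for all tested genes. At an unadjusted p under 0.05 in SP, 2 of 6 other BCL2-related genes and 2 of 13 transcription factors were lower in Δβ and none higher, where 8.96% of all tested genes were lower and 5.93% higher. The caspase list and the p53 list each had 1 gene higher and 1 lower, the death receptor list had 2 higher and 1 lower, and the MCL1 turnover list had 1 higher. Among the genes too low to be tested, Bcl2l10 and Bcl2a1c had at most 1 and 3 reads in a library and Hrk had 0. Of all 11476 tested genes, 909 were higher and 1075 lower in Δβ SP without overlap. The 3 genes with the smallest p in SP were taken from each list, so a lack of overlap among those named below follows in part from that choice.

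Upstream of the mitochondrion, Trp53 had 966, 997 and 1297 normalized counts in WT SP and 1336, 1482 and 1344 in Δβ SP. The p53 transcript was thus higher in each Δβ SP library than in any WT one (0.36 on the log2 scale, limma adjusted p = 0.286), while its target Cdkn1a, a cell cycle inhibitor, had 1780.1, 1141 and 502 in WT SP and 605, 409 and 329 in Δβ SP (-1.21, limma adjusted p = 0.307). The genotypes overlapped for Cdkn1a. Pmaip1 and Bbc3 are also p53 targets, and their estimates were below 0 too. Of the 12 tested genes of p53 and its targets outside the family, 8 had SP estimates below 0 and 4 above. A link of these values to p53 was not tested. Tigar, another target, had an estimate of 0.32 in SP (limma adjusted p = 0.351). Among factors that act on members, Atf3, a stress-induced factor that is also one of the 12 immediate early genes, had 832, 569 and 157 normalized counts in WT SP and 70.5, 141 and 58.7 in Δβ SP (-2.32, limma adjusted p = 0.309). For Rela, a subunit of NF-κB, the estimate was -0.29 with overlap.

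In death receptor signalling, Tnfaip3, which encodes the NF-κB inhibitor A20, had 936, 583 and 347 normalized counts in WT SP and 202, 263 and 271 in Δβ SP (-1.24, limma adjusted p = 0.205). Tnfsf10, the death ligand TRAIL, had 4.56, 3.18 and 7.10 in WT SP and 49.6, 40.3 and 11.7 in Δβ SP. Its SP estimate was 2.38 (limma adjusted p = 0.222), on few reads. The T and NK cell marker sum was 161, 11.2 and 59.8 in Δβ SP replicates 1, 2 and 3, and its part was not tested. The BM values of Tnfsf10 were 2.98, 13.5 and 8.06 in WT and 48.9, 19.9 and 11.4 in Δβ, which overlapped. Mlkl, the executioner of necroptosis, was at 807 to 1043 in WT SP and 1149 to 1185 in Δβ SP without overlap (0.34, limma adjusted p = 0.270).

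Further down, Htra2, a mitochondrial protease that antagonizes inhibitors of apoptosis, had an estimate of 0.45 on the log2 scale in SP (limma adjusted p = 0.329), and Dffa, the inhibitor of the apoptotic nuclease, one of 0.24 (limma adjusted p = 0.405). Bnip3l, a BCL2-related mitophagy receptor, had 2394, 1926 and 1407 in WT SP and 1264, 905 and 1078 in Δβ SP without overlap (-0.80, limma adjusted p = 0.222), and its relative Bnip3 had an estimate of -0.45, also without overlap. Huwe1, a ubiquitin ligase for MCL1, was at 3197 to 3730.0 in WT SP and 3958 to 4277 in Δβ SP (0.29, limma adjusted p = 0.294). Btrc and Gsk3b, which act in MCL1 degradation, had estimates of -0.34 and -0.25. Of the remaining survival and BH3-only genes, Bcl2l2 was at 223 to 443 normalized counts in the 12 libraries, Bad at 417 to 574 and Bmf at 90.3 to 627. Bmf was lowest in WT SP replicate 3 and highest in WT SP replicate 1.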

How the data were processed

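RNA of Venus-sorted blasts had been sequenced by the authors from 12 poly-A libraries, which the labels assign to a genotype and an organ. The members and gene lists were chosen with earlier results of these data known. The submitters' processing notes name FastQC, STAR, featureCounts and DESeq2 and the build GRCm38/mm10; versions and strand settings are not given in the sources used here. In the deposited table the signal of a gene is its read count after division by the library's size factor. Dividing by the worth of 1 read gave whole numbers within 0.01 for 100.0% of values, and these served as recovered reads. Another 6 columns without a label were not used.

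The main test was limma 3.58.1 in R 4.3.3 (eBayes with a mean trend after lmFit) for 11476 genes with a mean of at least 10, on log2(normalized count + 1), which understates changes of low genes. Each of 4 groups had its own mean, and p-values were adjusted by Benjamini-Hochberg over all tested genes (threshold 0.05). For both organs together, the log2 values of same-numbered SP and BM libraries were averaged within each genotype, 3 against 3. Alternatives were pseudocounts of 0.25 and 4, no filter or a minimum mean of 50, TMM, eBayes without trend, edgeR 4.0.16 and DESeq2 1.42.0 on recovered reads, a replicate block, smaller fits and each library left out. Same-numbered SP and BM libraries deviated together in Δβ (r = 0.61 to 0.66, a pairing seen in the data and not stated in the labels) but not in WT (-0.24 to -0.01). The WT averages over both organs may therefore mix mice. Named genes are the 10 members, per pathway list the 3 with the smallest p in SP, and per member the 3 with the highest r; a few of these are not reported here. Positions and exon lengths are from GENCODE M21 (GRCm38), promoters from RefSeq (GRCm38.p6). The tests were tried on simulated data.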

Additional observations from a re-analysis of the deposited data

How the results depend on the processing

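Standard errors of the members' genotype differences within an organ ran from 0.10 for Bid to 0.79 for Bcl2a1b on the log2 scale, which set what 3 libraries per group could show, and Bcl2a1b rests on few reads. The counts of all genes called by limma were the least stable values. In SP the 12 genes (6 higher and 6 lower in Δβ) became 1 with a pseudocount of 0.25, 18 with one of 4 (9 higher and 9 lower), 5 with no filter, 2 with a minimum mean of 50, 3 after TMM (1 higher and 2 lower), 3 without the trend, 4 with edgeR, 457 with DESeq2 (143 higher and 314 lower) and 2 with the 6 SP libraries alone. In BM the 8 genes (6 higher and 2 lower) became 7 after TMM (6 and 1), 5 without the trend, 37 with DESeq2 and 3 with the 6 BM libraries alone. Over both organs the 17 genes (10 higher and 7 lower) became 14 after TMM (10 and 4), 11 without the trend and 48 with 12 libraries as separate units. DESeq2 called 111 genes between organs in WT, 2 in Δβ and 3 for the SP effect minus the BM effect, where limma called 0. Members called in SP numbered 0, and 3 with DESeq2.

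With a replicate block, 2 genes were called in SP, 5 in BM and 55 over both organs, and the block changed the call of 0 of 10 members in each comparison. Same-numbered WT and Δβ libraries had r of -0.17 to 0.20 in SP and -0.09 to 0.13 in BM, so there they share a number alone.

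Leaving out each library gave 1 to 1884 genes in SP, 1 to 6 in BM, 2 to 27 over both organs and 0 to 598 between organs in WT, and 0 to 4 members in SP and 0 to 1 between organs in WT. The high ends in SP and between organs in WT are without WT SP replicate 3. Of 990 recomputed member values over the 6 comparisons, 936 kept direction and side of the threshold, 8 passed it newly and 46 turned sign, none of them past the threshold. On the log2 scale, Bak1 in SP became 0.038 after TMM, 0.015 with edgeR and 0.0055 with DESeq2, and the Bcl2a1b SP effect minus its BM effect became -0.62 with edgeR and DESeq2. Bcl2 became 0.032 over both organs after TMM, and between organs in Δβ 0.0059 after TMM and 0.00025 with DESeq2. The other turns came from leaving out 1 library, with ranges of -0.84 to 0.38 for Bcl2 and -0.11 to 0.10 for Bak1 in SP. In BM they were -0.11 to 0.042 for Bcl2l1, -0.16 to 0.20 for Mcl1 and -0.24 to 0.20 for Bcl2l11. For Bcl2a1b they were -0.63 to 1.09 in SP effect minus BM effect and -0.16 to 1.55 between organs in WT, and the SP effect minus the BM effect was -0.24 to 0.18 for Bax and -1.11 to 0.11 for Bcl2. Over both organs they were -0.34 to 0.42 for Bcl2 and -0.37 to 0.035 for Bcl2l11. Between organs in WT they were -0.12 to 1.1 for Bcl2, -0.015 to 0.11 for Bcl2l1 and -0.12 to 0.29 for Bcl2l11. Between organs in Δβ they were -0.17 to 0.13 for Mcl1, -0.20 to 0.33 for Pmaip1, -0.25 to 0.14 for Bcl2, -0.11 to 0.042 for Bcl2l1, -0.45 to 0.021 for Bcl2l11 and -0.053 to 0.12 for Bid. The cause was not tested.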
